A study of Mus musculus with 16 samples.

Results

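The nuclear genes for the subunits of the oxidative phosphorylation machinery were followed in periodontal ligament, the connective tissue that holds a tooth root in its socket, of wild-type male C57BL/6J mice aged 9 weeks. Bulk poly(A) RNA sequencing gave 16 libraries in 4 groups of 4. Control mice were untreated. Ligature mice carried a silk thread around the second molar of the left upper jaw, a model of periodontitis. Trauma mice had composite resin built on the biting surface of the same tooth, a model of traumatic occlusion, and ligature plus trauma mice had both. How long the thread or resin stayed in place, and whether each library stands for 1 mouse, were not given in the sources used here. All p-values rest on the variation among the deposited libraries, and some of it may be technical. Members were selected on their symbols and their counts: the symbol had to begin as those of complex I, III, IV and V subunits do (Nduf followed by a, b, c, s or v and a digit, Uqcr, Cox4 to Cox8, or Atp5) or be Sdha, Sdhb, Sdhc or Sdhd, and the count had to reach 10 in at least 4 of the 16 libraries. Such a symbol was found for 97 of the 55359 rows counted and 89 also had the counts. They comprise 38 rows of complex I, 4 of complex II, 8 of complex III, 19 of complex IV and 20 of complex V. Of the 89 rows 82 are protein-coding genes, and 7 are pseudogene or other rows not marked as coding (Ndufb1-ps, Ndufb4c, Ndufs6b, Cox6c2, Atp5k-ps2, Atp5l-ps1 and Atp5l2-ps).

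Oxidative phosphorylation takes place in the inner mitochondrial membrane. Complex I accepts electrons from NADH and complex II from succinate, and both pass them to ubiquinone. Complex III hands them to cytochrome c, and complex IV delivers them to oxygen. Complexes I, III and IV pump protons, and complex V, the ATP synthase, lets the protons return and makes ATP. Complexes I, III, IV and V combine subunits from nuclear and from mitochondrial DNA, whereas complex II is wholly nuclear and also works as an enzyme of the tricarboxylic acid cycle. Bone-resorbing osteoclasts and skeletal muscle fibres are known for dense mitochondria.

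The count threshold left little in doubt. All members but 2 reached 10 counts in every library. Cox6a2 did so in 12 libraries and Cox8b in 8. Just outside the threshold, Atp5l-ps2 did so in 1 library. The other 7 rows that were left out (a second Atp5o row, Uqcrh-ps1, Uqcrh-ps2, Ndufa11b, Cox7b2, Atp5c1-ps and Cox8c) did so in none. All 89 members passed the expression filter of the test. The subunits Cyc1, Ndufab1 and Usmg5 and the ATP synthase inhibitor Atpif1 do not have a symbol of the required form in the annotation at hand and are not members.

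Library totals ran from 58458102 to 77468584 counts, and members held from 0.757% to 2.85% of them. A pair of properties of single libraries touch nearly every value. Counts were shifted to short transcripts in 3 libraries. The slope of the genes' deviations on log2 transcript length was -0.418 in ligature 2, -0.283 in ligature plus trauma 2 and -0.306 in the third library of that group. It ran between -0.127 and 0.271 in the 13 others. Most members are short, so the counts and medians of members, and the members the results turn on, are given with 16 libraries and with these 3 left out, called 13 libraries from here on. Skeletal muscle transcripts also varied: a score of 18 muscle genes (mean log2 CPM, counts per library total adjusted by the TMM factor of the library, minus the 16-library mean) reached 5.05 in ligature 2, 3.15 in control 3 and 3.09 in ligature 3. Trauma libraries had scores of -2.58 to -0.93. Periodontal ligament fibroblast markers summed to 42215 CPM or more in every library. In bulk RNA, a change in the number of cells of a type and a change in RNA per cell cannot be told apart. Many subunits also have processed pseudogenes whose sequence is nearly identical to the gene, and the treatment of reads that match several places was not given in the sources used here, so single small subunits are uncertain.

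Promoters of the members carried binding motifs of known respiratory-gene regulators, described here by letters alone. Windows from 250 bases before to 50 bases after the RefSeq start (GRCm38.p6) were found for 67 of the 82 coding members. The NRF1 motif, searched as GCGCANGCG on both strands, was present in 19 of them (28.4%), against 8.83% of 17492 promoters of protein-coding genes. These 17492 were not limited to genes counted in these libraries, so the shares do not compare members with other expressed genes. The ETS motif CCGGAAG, of the kind bound by GABP, was present in 15 (22.4%, against 11.9%), and the YY1 motif AAGATGGCG in 6 (8.96%, against 1.94%). At least 1 of the 3 was present in 33 (49.3%, against 20.3%). The last letters of the ETS motif are the first of the YY1 motif, and the last of YY1 the first of NRF1, so neighbouring matches can overlap. The following 60-base stretches, on the minus strand of GRCm38.p6 and read 5′ to 3′ along the gene, show matches in capitals for a complex II member and 2 ubiquitous complex IV members. The Sdha stretch holds 1 NRF1 match, the Cox6a1 stretch a pair of overlapping NRF1 matches, 1 per strand, and the Cox6b1 stretch an ETS match on the opposite strand.
Sdha, chr13:74350305-74350364: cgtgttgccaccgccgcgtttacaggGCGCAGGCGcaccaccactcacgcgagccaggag
Cox6a1, chr5:115349087-115349146: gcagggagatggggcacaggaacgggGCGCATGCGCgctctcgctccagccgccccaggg
Cox6b1, chr7:30626115-30626174: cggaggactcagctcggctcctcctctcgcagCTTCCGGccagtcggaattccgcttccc
The 3 genes are described with their counts below. A match is not evidence that a factor was bound, and no binding was measured in these mice.

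Levels can be compared between genes only per length, as a share of transcripts (TPM). Ndufa4, a complex IV subunit despite its name, had the highest mean over the 16 libraries at 1443 TPM with the main transcript length. Cox6c followed at 1025, Uqcrb, a subunit of complex III, at 874, and Atp5j, a stalk subunit of complex V, at 849. Within the remaining complexes the highest were Ndufc1 (594 TPM, complex I) and Sdhd (329 TPM, complex II). The order depends on which transcript sets the length. With the longest annotated transcript Uqcrb came first at 1022 TPM, Ndufa4 was 10th at 654 and Cox6c 38th at 253. In complex I Ndufa1 (639 TPM) then led and Ndufc1 came to 185, in complex V Atp5b (916 TPM) lay above Atp5j (839 TPM), and Sdhd remained the highest of complex II at 405. In control libraries Ndufa4 stood at 887 ± 162 TPM (SD, n = 4) and Cox6c at 658 ± 199, so their order was not separated by the spread.

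With the ligature alone, the members that rose against control ranged from all of complex II to a single member of complex IV. Of the 89 members 20 rose (edgeR quasi-likelihood test, Benjamini-Hochberg adjusted p under 0.05 over 20953 genes) and 0 fell, where 5.88% of all genes tested rose and 4.78% fell. The log2 fold change was positive for 87 members, with a median of 1.12 against -0.050 over all genes. At an unadjusted p under 0.05, 67 members were higher and 0 lower. Of the 20953 genes tested, 5652 had such a p in either direction. The members that rose were all 4 of complex II, 4 of 8 in complex III, 6 of 20 in complex V, 5 of 38 in complex I and 1 of 19 in complex IV. The count in complex IV is close to the share of all genes that rose. The median log2 fold changes of the complexes lay close together, at 1.07 for complex I, 1.12 for complex II, 1.10 for complex III, 1.19 for complex IV and 1.14 for complex V. For 33 members the CPM of all 4 ligature libraries lay above all 4 controls, a pattern found in 9.97% of all genes tested.

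**Figure D1:**
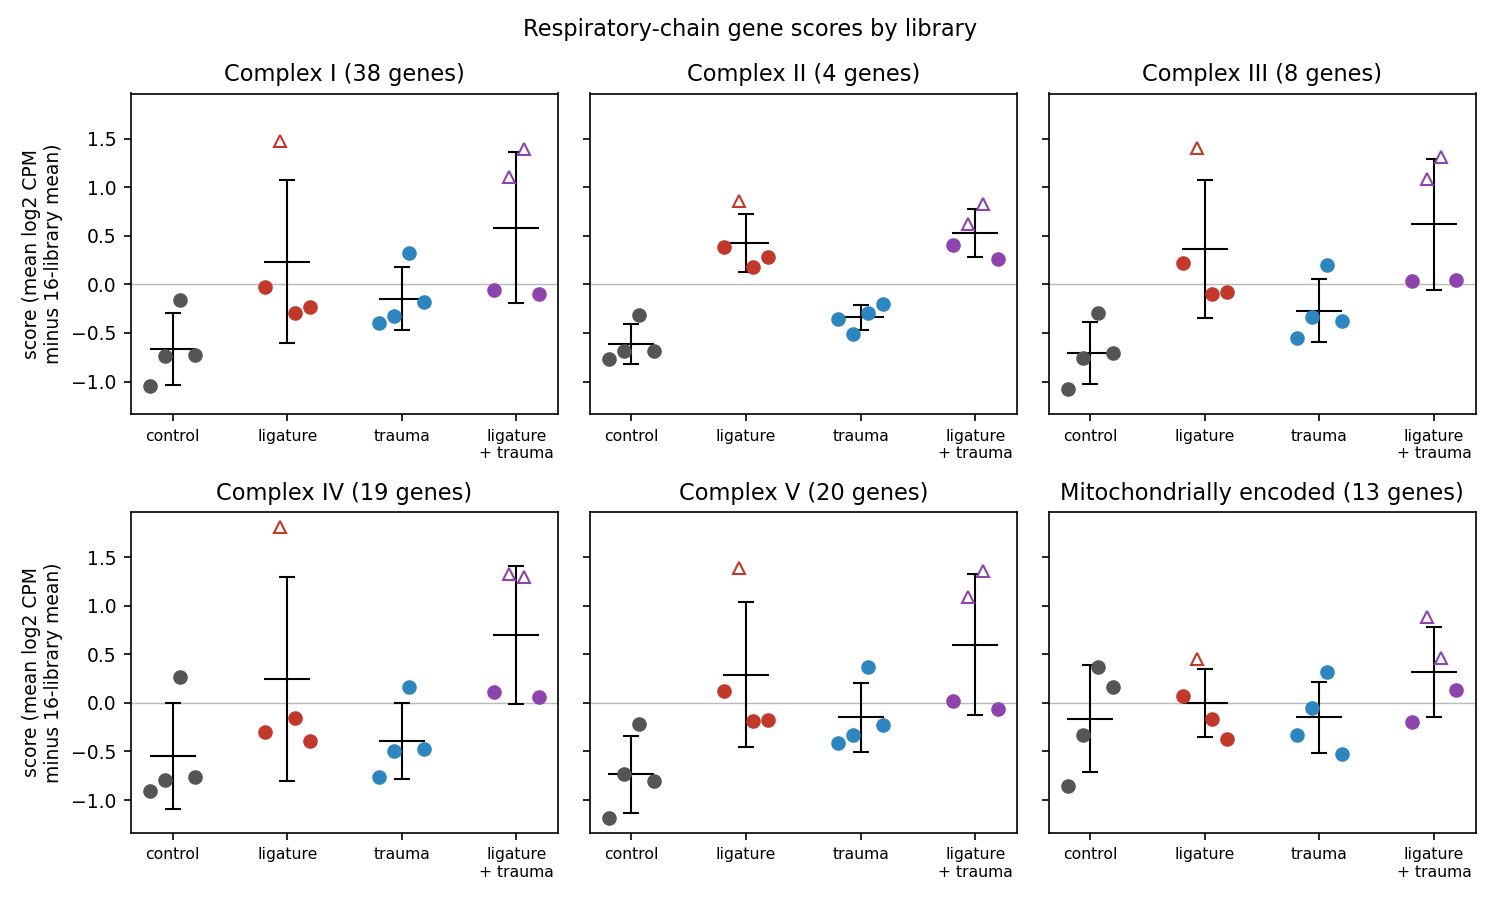
Score of each complex and of the 13 mitochondrially encoded subunits (mean log2 CPM of the genes minus their mean over 16 libraries, vertical axis) in each library by group; bars are the group mean with the SD (n = 4), and open triangles are the 3 libraries shifted to short transcripts. The triangles sit at the top for each nuclear complex, and for complex II the ligature libraries (0.18 to 0.86) lie above the controls (-0.77 to -0.31) with or without them.

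The same comparison in 13 libraries kept 17 of the 20 calls. There 18 members rose, where 4.49% of 22807 genes did, and the median log2 fold change was 0.56 against -0.086 over all genes. The medians of the complexes then spread out: 0.84 for complex II, 0.66 for complex III, 0.63 for complex V, 0.46 for complex I and 0.36 for complex IV. All 4 complex II genes were called again, together with 5 members of complex I, 3 of complex III, 1 of complex IV and 5 of complex V. With a smooth trend on transcript length removed from every library, 31 members rose (7.57% of all genes), and with the slope on length as a covariate 19 (6.26%). Called in the fit of 16 libraries, that of 13, and both of these corrections were 16 members, among them Ndufa8, Ndufa9, Ndufa10, the 4 Sdh genes, Uqcrc2, Uqcrfs1, Uqcrq, Cox5a, Atp5a1, Atp5b, Atp5g1 and Atp5g3. Without the 3 libraries with most muscle RNA, which leaves 2 ligature libraries, 4 members rose (1.66% of all genes).

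**Figure D2:**
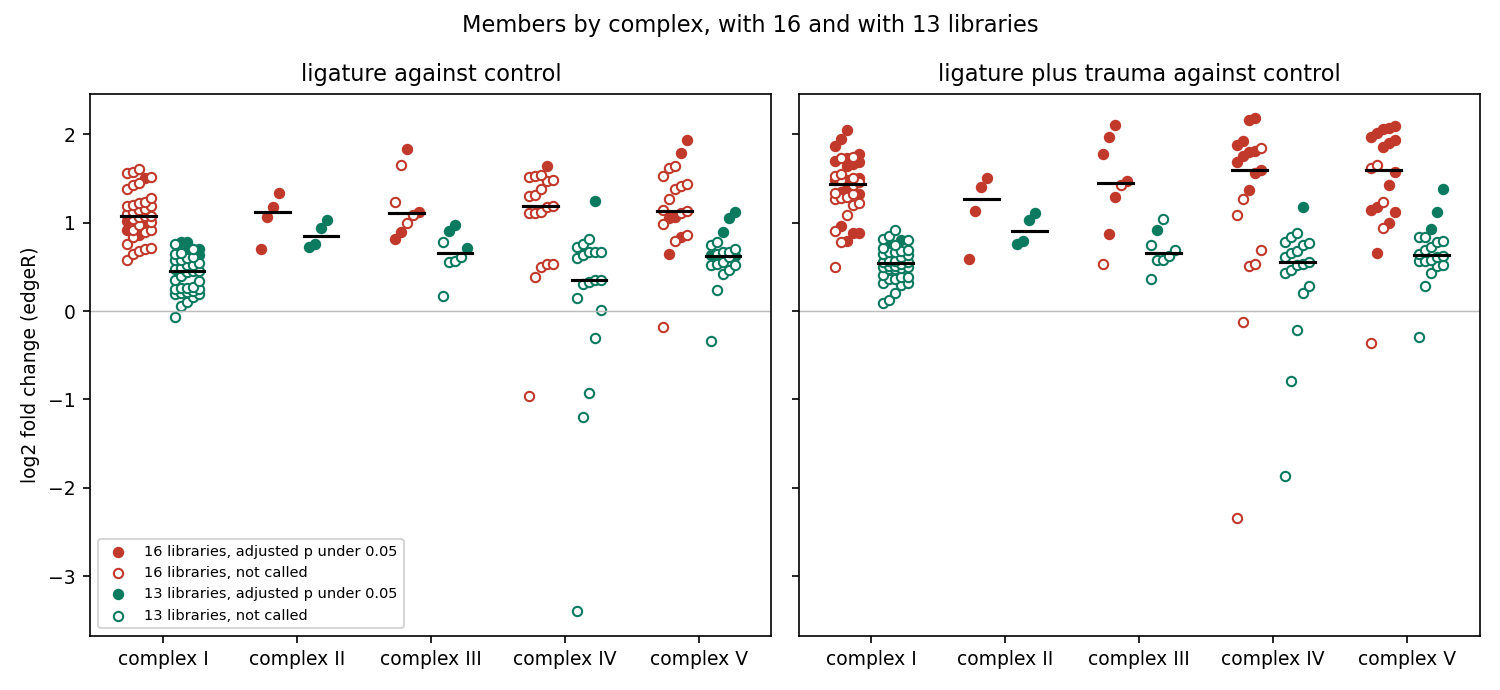
Log2 fold change against control of each member (vertical axis) by complex, with 16 libraries (red) and with 13 (green); filled points passed an adjusted p of 0.05 and black bars are medians. In ligature plus trauma the median of complex IV moves from 1.60 with 16 libraries to 0.55 with 13, and that of complex II from 1.27 to 0.91 with its 4 genes called in each.

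Complex II, succinate dehydrogenase, was the complex whose members all rose in both fits. Sdha encodes the flavoprotein that oxidises succinate. Its CPM were 182, 190, 188 and 184 in control, 347, 260, 293 and 315 in ligature, 204.5, 154, 133 and 205 in trauma and 318, 233, 252 and 315 in ligature plus trauma. Every library with a ligature lay above every library without, and the 4 controls differed little. This separation depends on the TMM factor: on plain library totals ligature 2 stood at 209.7, ligature plus trauma 2 at 205.6 and ligature plus trauma 3 at 213, below control 1 (218) and trauma 1 (229). The log2 fold change in ligature against control was 0.71 ± 0.18 (SE, adjusted p = 0.0231), and 0.76 ± 0.16 in 13 libraries. Sdhb, the iron-sulfur subunit, measured 79.5, 98.9, 137 and 96.8 CPM in control and 239, 438, 170 and 189 in ligature. It rose by 1.33 ± 0.32 on the log2 scale (adjusted p = 0.0143), and by 0.93 ± 0.21 in 13 libraries (adjusted p = 0.0169).

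Sdhc and Sdhd encode the membrane anchors of complex II, which carry its haem and bind ubiquinone. Sdhc measured 55.1, 43.6, 63.8 and 42.3 CPM in control, 98.6, 146, 103 and 116.5 in ligature, 82.5, 73.2, 97.0 and 84.4 in trauma and 129, 160.1, 161 and 93.4 in ligature plus trauma. All 12 treated libraries exceeded the 4 controls. The log2 fold change with the ligature was 1.18 ± 0.21 (adjusted p = 0.00291), and 1.03 ± 0.18 in 13 libraries. Sdhd measured 123, 154, 213 and 168 CPM in control and 294, 544, 270.5 and 261 in ligature. The 2 groups did not overlap, and Sdhd rose by 1.06 ± 0.26 (adjusted p = 0.0179), or by 0.73 ± 0.17 in 13 libraries. Sdhb and Sdhc were called in all 16 fits that leave out 1 library, Sdhd in 13 (highest adjusted p = 0.0575) and Sdha in 10 (highest adjusted p = 0.0715). Without the 3 muscle-rich libraries Sdhc was called, and Sdhb (adjusted p = 0.0596), Sdha (0.0812) and Sdhd (0.0825) were not.

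**Figure D3:**
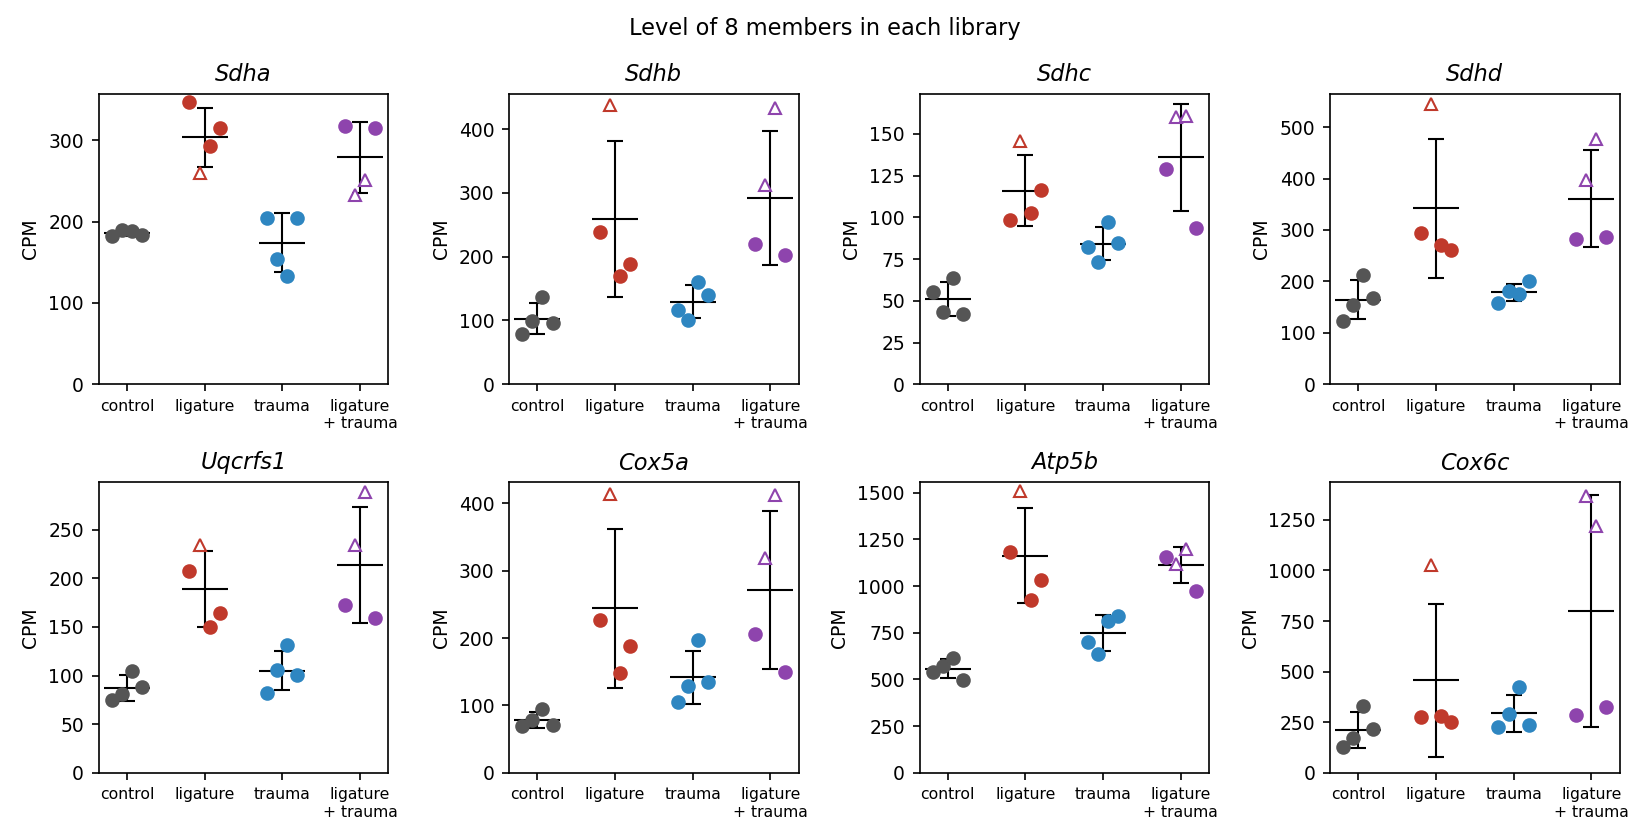
CPM (vertical axis, from 0) of 8 members in each library by group; bars are the mean with the SD (n = 4) and open triangles the 3 libraries shifted to short transcripts. In Sdha the triangles fall at or near the bottom of their groups, whereas in Cox6c they reach 1025, 1365 and 1220 CPM and the other ligature-bearing libraries stay between 249 and 323.

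In complex I the accessory subunit Ndufa10 was among the 5 members that rose. Its CPM were 55.1, 59.6, 59.3 and 52.9 in control, 99.9, 159, 79.4 and 88.5 in ligature, 60.7, 69.4, 98.2 and 74.8 in trauma and 95.6, 93.3, 121.4 and 81.8 in ligature plus trauma. All treated libraries lay above the 4 controls, which differed little. The log2 fold change with the ligature was 0.91 ± 0.22 (adjusted p = 0.0172), and 0.64 ± 0.17 in 13 libraries. It was called in 15 of the 16 fits that leave out 1 library, with an adjusted p of 0.0550 without ligature 2, and was not called without the 3 muscle-rich libraries (adjusted p = 0.131). Ndufa9, which sits where the 2 arms of the complex meet, measured 87.9, 106, 132 and 87.9 CPM in control and 200.4, 330, 145.5 and 164 in ligature, without overlap. It rose by 1.02 ± 0.27 (adjusted p = 0.0233) and was called in 12 of those 16 fits. Without the muscle-rich libraries it was not called (adjusted p = 0.0866). Ndufa8 rose as well and was called in 11 of the 16. Ndufv1, which carries the NADH site, rose with all libraries but was called in 2 of the 16 and not in 13 libraries. The remaining 33 rows had log2 fold changes from 0.58 upward and did not pass. Ndufc1, the complex I member with the highest level per length by the main but not by the longest transcript, measured 51.5, 59.4, 87.5 and 54.4 CPM in control and 116.8, 302, 83.0 and 93.0 in ligature, where ligature 3 lay within the control range (log2 fold change 1.23 ± 0.45, adjusted p = 0.0925).

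Complex III members rose in 4 of 8 cases. Uqcrfs1, the Rieske iron-sulfur protein, measured 75.2, 80.6, 105 and 88.2 CPM in control and 208, 234, 149.5 and 164 in ligature. All ligature libraries lay above all controls, and the log2 fold change was 1.12 ± 0.23 (adjusted p = 0.00598), or 0.98 ± 0.18 in 13 libraries. The structural core proteins Uqcrc2 (0.89 ± 0.21, adjusted p = 0.0127) and Uqcrc1 (0.81 ± 0.22, adjusted p = 0.0252) rose too, and in 13 libraries Uqcrc1 no longer passed (adjusted p = 0.0804). Uqcrq, a small subunit of the complex, was the fourth. Uqcrb, at 104, 154.5, 260.2 and 176 CPM in control and 302, 697, 259 and 223 in ligature, overlapped between the groups and did not pass (1.09 ± 0.44, adjusted p = 0.117).

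In complex IV only Cox5a, a matrix-side subunit, rose with the ligature. It measured 69.3, 78.9, 94.0 and 70.7 CPM in control, 227, 414, 147 and 188 in ligature, 105.5, 129.5, 197 and 134 in trauma and 207, 318, 412 and 149 in ligature plus trauma. The controls were the lowest 4 of the 16 libraries. The log2 fold change with the ligature was 1.64 ± 0.34 (adjusted p = 0.0070), and 1.24 ± 0.23 in 13 libraries. The other ubiquitous subunits had positive values that did not pass, among them Cox4i1 (1.19 ± 0.39, adjusted p = 0.0611), Cox6a1 (1.30 ± 0.43, adjusted p = 0.0625), Cox6b1 (1.48 ± 0.48, adjusted p = 0.0582), Cox7a2 (1.54 ± 0.54, adjusted p = 0.0795) and Cox8a (1.11 ± 0.48, adjusted p = 0.151). In the ligature group each of these was highest in ligature 2. Cox6b1, for example, measured 331, 251 and 265 CPM in ligature 1, 3 and 4 but 921 in ligature 2, and 116 to 239 in control. The SE rests on the spread within all 4 groups. On plain library totals Cox6b1 stood at 595 and 822 CPM in ligature plus trauma 2 and 3, against 280 and 304 in ligature plus trauma 1 and 4.

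Several complex IV subunits have tissue-restricted forms, and these followed other lines. Cox6a2 and Cox8b are the forms of heart and skeletal muscle. Cox6a2 measured 0.2, 0.3, 5.7 and 0.8 CPM in control, 0.1, 17.1, 2.0 and 0.2 in ligature and at most 0.4 in trauma. Cox8b reached 5.5 CPM in control 3 and 7.8 in ligature 2 and stayed at or below 0.4 in the other 14 libraries. In ligature plus trauma Cox6a2 measured 1.2, 5.5, 1.6 and 1.8 CPM, so that ligature plus trauma 2 (muscle score 1.96) stood above ligature 3 (score 3.09). Both genes were highest in ligature 2 and control 3, and their ubiquitous partners Cox6a1 and Cox8a were at least 68.2 and 123.5 CPM throughout. Cox7a1, also a muscle form, measured 14.8 CPM in ligature 2 and 0.6 to 7.4 elsewhere. None of the 3 passed in any of the 6 comparisons. With the muscle score as a covariate, 16 of the 20 calls in ligature against control stayed.

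**Figure D4:**
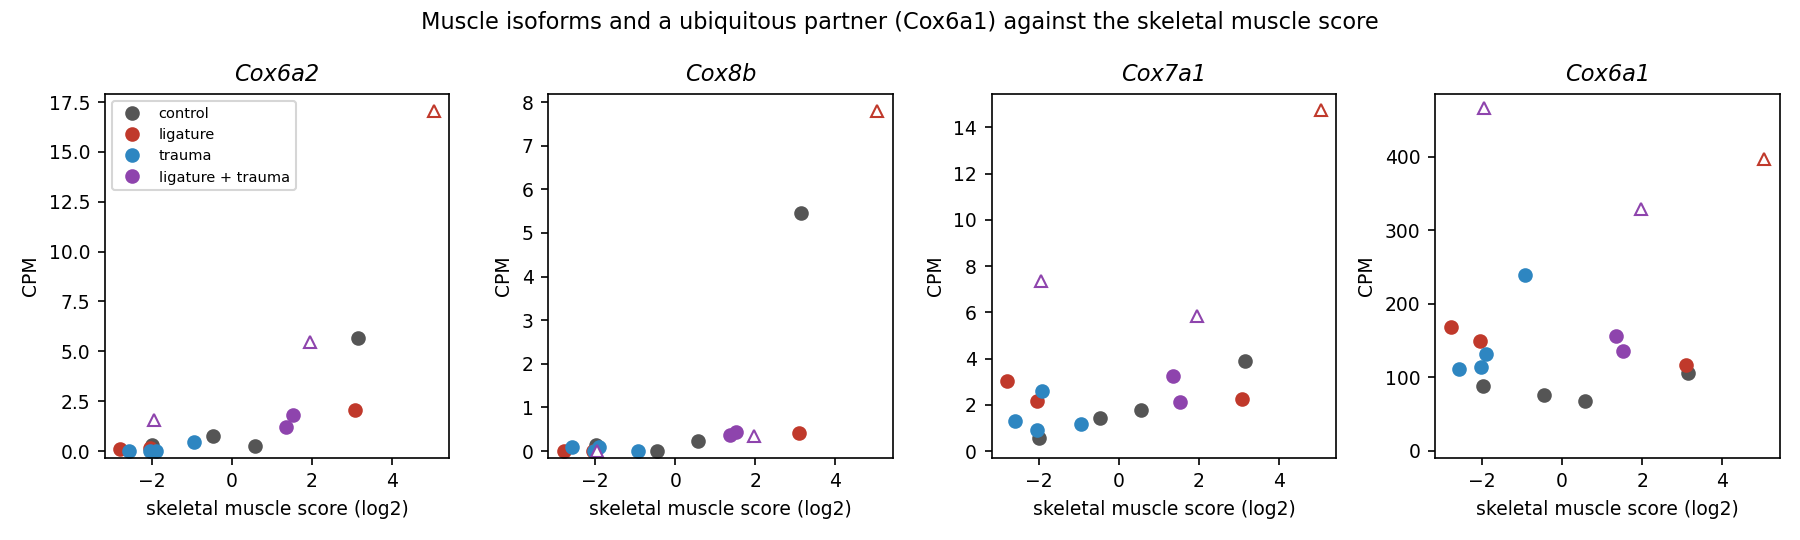
CPM (vertical axis) of the muscle forms Cox6a2, Cox8b and Cox7a1 and of the ubiquitous Cox6a1 against the skeletal muscle score (horizontal axis, log2) in 16 libraries, coloured by group; open triangles are the libraries shifted to short transcripts. Cox6a2 and Cox8b are highest in ligature 2 (score 5.05), while Cox6a1 is highest in ligature plus trauma 3, whose muscle score is -1.95.

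The remaining paralogues are not muscle forms. Cox4i2, the alternative form of Cox4i1 known from lung and from low oxygen, was the member that stood most against the rest: it measured 24.9, 7.6, 13.2 and 15.8 CPM in control and 5.3, 7.2, 6.2 and 13.02 in ligature, with overlap and a log2 fold change of -0.96 ± 0.45 that did not pass (adjusted p = 0.186). In 13 libraries the value was -0.93 ± 0.49. Cox6b2, known from testis, stayed between 0.9 and 5.0 CPM in all libraries. Ndufa4l2, a relative of Ndufa4 that is induced by low oxygen, measured 3.9 to 11.3 CPM in control. Its range was 4.5 to 12.9 with the ligature, 8.2 to 19.4 with trauma and 6.7 to 14.1 with both, and it passed in no comparison. Ndufa4 itself measured 163 to 297 CPM in control and 303 to 927 in ligature, without overlap, and did not pass (1.17 ± 0.50, adjusted p = 0.144).

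In complex V both subunits of the catalytic core rose with the ligature. Atp5b, the catalytic beta subunit, had the highest mean CPM of the members, which is not a level per length. Cox6c lay above it in ligature plus trauma 2 and 3. Atp5b measured 542, 574, 615 and 499 CPM in control, 1185, 1507, 926 and 1033 in ligature, 699, 638, 812 and 840.1 in trauma and 1158, 1118, 1199 and 973 in ligature plus trauma. All treated libraries lay above all controls, and all libraries with a ligature above all without. On plain library totals trauma 2 (648.3) and control 1 (649.4) changed places. Atp5b rose by 1.06 ± 0.19 with the ligature (2.09-fold, adjusted p = 0.00267), by 0.89 ± 0.16 in 13 libraries, and was called in each of the 30 other fits. Atp5a1, the alpha subunit, measured 383 to 423 CPM in control and 589 to 669 in ligature and rose by 0.64 ± 0.15 (adjusted p = 0.0142), and by 0.63 ± 0.13 in 13 libraries. Atp5g3, 1 of the genes for the membrane ring, measured 76.5 to 109 CPM in control, 222, 761, 161 and 194 in ligature, and rose by 1.94 ± 0.46 (adjusted p = 0.0143), or by 1.12 ± 0.24 in 13 libraries. Atp5g1, another ring gene, and Atp5d and Atp5f1 of the stalk made up the 6. Atp5d was called in 3 and Atp5f1 in 6 of the 16 fits that leave out 1 library. Atp5j, the member of this complex with the highest level per length by the main but not by the longest transcript, measured 154 to 324 CPM in control and 305 to 931 in ligature and did not pass (adjusted p = 0.113).

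With ligature and trauma together, 55 of the 89 members rose against control and 0 fell, where 6.83% of all genes tested rose and 5.62% fell. These were 19 of complex I, 4 of complex II, 6 of complex III, 11 of complex IV and 15 of complex V, and the median log2 fold change was 1.47 against -0.083 over all genes. For 46 members all 4 ligature plus trauma libraries lay above all controls, as was the case for 10.8% of all genes. In 13 libraries, which leaves ligature plus trauma 1 and 4, the count was 11 (2.13% of all genes) and the median 0.61. Among those 11 were Ndufs1, the 4 Sdh genes, Uqcrfs1, Cox5a, Atp5b, Atp5g1 and Atp5g3, and 10 of the 11 were among the 55. Leaving out single libraries moved the count from 7 (without ligature plus trauma 3) and 10 (without ligature plus trauma 2) to 79 (without ligature 2). It was 12 without control 1 or control 2 and 13 without control 4. The share of all genes that rose in these fits is not given here, so a shift shared with other genes cannot be told apart.

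The lowest p in this comparison belonged to Sdhc (1.41 ± 0.21, adjusted p = 0.00129), Uqcrfs1 (1.29 ± 0.23, adjusted p = 0.00299) and Atp5b (1.99-fold, adjusted p = 0.00443). In 13 libraries they rose by 1.11 ± 0.20, 0.92 ± 0.20 and 0.93 ± 0.17. Sdhb rose 2.83-fold (adjusted p = 0.00829) and Sdhd by 1.14 ± 0.26 (adjusted p = 0.0130). Sdha, at 0.59 ± 0.18 (adjusted p = 0.0476), was called in 2 of the 16 fits that leave out 1 library, with an adjusted p of up to 0.107, and its value ranged from 0.50 to 0.65. Sdhb, Sdhc, Uqcrfs1, Cox5a, Atp5b and Atp5g3 were called in all 16. Cox6c, a small subunit of complex IV at 285.5, 1365, 1220 and 323 CPM against 125 to 331 in control, was called with 16 libraries (1.92 ± 0.56, adjusted p = 0.0377) and had a log2 fold change of 0.52 ± 0.33 with 13 (adjusted p = 0.426). Cox8b, most opposite to the members' median, stayed at or below 0.4 CPM in this group.

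Member by member, the size of the change with 16 libraries followed transcript length. Across the 89 members, which share libraries and are not independent, Spearman's correlation between log2 fold change against control and length was -0.455 in ligature and -0.586 in ligature plus trauma. In 13 libraries it was 0.134 and 0.076. For trauma against control it was -0.449 with 16 libraries and -0.448 with 13, as the libraries left out are in neither group. Slopes on length were 0.271, 0.178, 0.056 and 0.186 in control 1 to 4, and -0.127 to 0.058 in trauma. Of the 26 members of at least 1000 bases 14 rose with the ligature and 16 with both treatments, and in 13 libraries 12 and 8. Of the 63 shorter members 6 and 39 rose, and in 13 libraries 6 and 3. Over all genes tested, of any length, 5.88% and 6.83% rose, and 4.49% and 2.13% in 13 libraries. With the length trend removed from each library, 55 members rose with both treatments (8.08% of all genes) at a median of 0.89. With the slope as a covariate 14 did (3.57%) at a median of 0.32. Without the 3 muscle-rich libraries 78 did (8.78%).

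**Figure D5:**
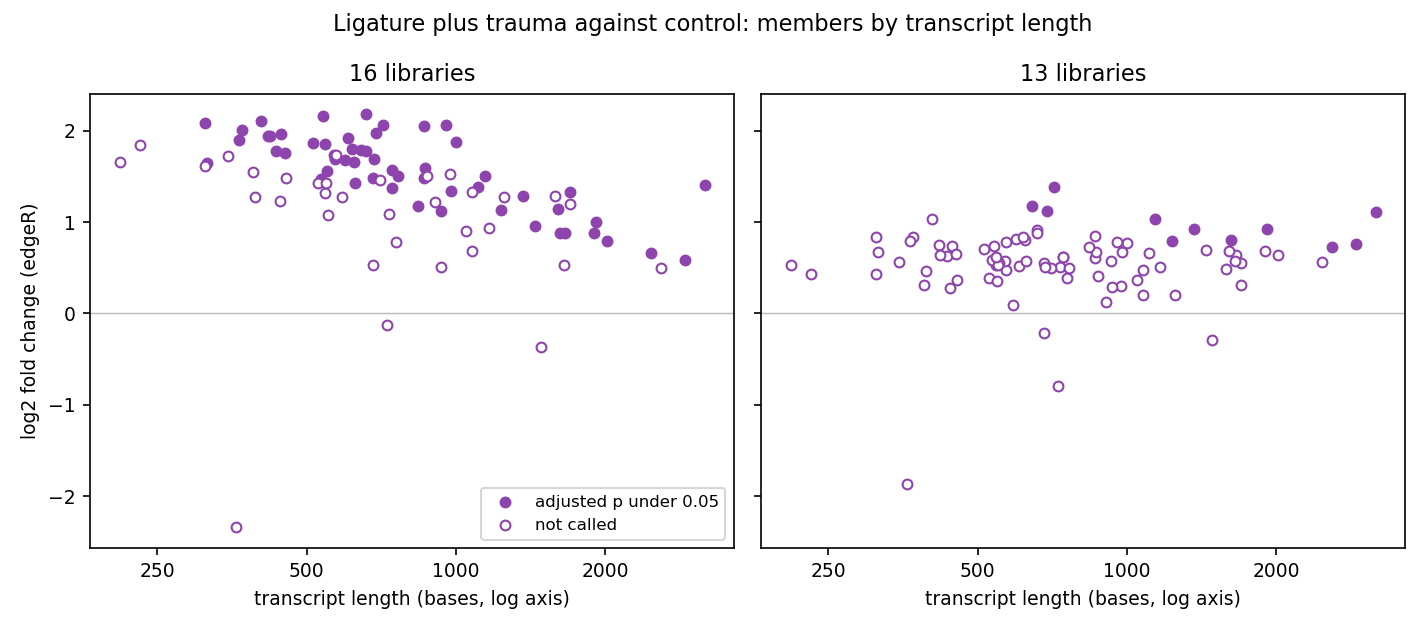
Log2 fold change of each member in ligature plus trauma against control (vertical axis) by transcript length in bases (horizontal log axis), with 16 libraries on the left and 13 on the right; filled points passed an adjusted p of 0.05. Shorter members stand higher on the left (correlation -0.586), and on the right the values show no such slope (0.076).

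Trauma alone gave no called member in edgeR or in DESeq2. The log2 fold change was positive for 83 of 89 members with a median of 0.50 (0.49 in 13 libraries), against 0.010 over all genes, and 0.00477% of all genes tested changed. The libraries left out belong to neither group, so the value in 13 libraries is not a check on transcript length. At an unadjusted p under 0.05, 5 members were higher and 2 lower, the latter being the muscle forms Cox6a2 and Cox8b. Of the 20953 genes tested, 1450 had such a p in either direction, a share close to that of the members. The medians were 0.49 for complex I, 0.23 for complex II, 0.33 for complex III, 0.55 for complex IV and 0.61 for complex V. For 9 members all trauma libraries lay above all controls, as was the case for 3.65% of all genes. The members with the lowest p were Sdhc (0.72 ± 0.21, adjusted p = 0.545), Ndufa4l2 (0.99 ± 0.39) and Cox5a (0.85 ± 0.34, each with an adjusted p of 0.677). Sdha lay at -0.10 ± 0.18. With the length slope as a covariate, 25 members were positive and the median was -0.12.

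No member passed the test for adding trauma to the ligature. In ligature plus trauma against ligature 0 members and 0% of all genes passed in edgeR, and 0 members passed in DESeq2. An unadjusted p under 0.05 was found for 0 members and for 734 of the 20953 genes tested. The members' median was 0.29, and 0.082 in 13 libraries. Every member overlapped between the groups. For Sdha the 95% interval of the log2 difference was -0.51 to 0.27, and for Atp5a1 and Uqcrc2 it also held 0. The lowest p belonged to Cox4i2, at 8.1, 21.1, 17.5 and 9.7 CPM against 5.3, 7.2, 6.2 and 13.02 (0.83 ± 0.45, adjusted p = 1.0). The interaction (trauma effect in ligated mice minus trauma effect in unligated mice) likewise passed for 0 members and 0% of genes in edgeR and 0 members in DESeq2. Here 0 members and 1032 of the 20953 genes tested had an unadjusted p under 0.05. The members' median interaction was -0.18, and -0.41 in 13 libraries. The lowest p were those of Atp5b (-0.49 ± 0.26), Uqcrc1 (-0.56 ± 0.30) and Ndufa10 (-0.54 ± 0.31), each with an adjusted p of 0.9999.

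Against trauma, ligature plus trauma had 6 members that rose and 0 that fell, where 2.21% of all genes rose and 3.27% fell. They were Uqcrfs1 (1.02 ± 0.23, adjusted p = 0.0164), Sdhd (1.02 ± 0.26, adjusted p = 0.0322), Uqcrc2 (0.79 ± 0.21, adjusted p = 0.0346), Sdhb (1.17 ± 0.31), Atp5a1 (0.56 ± 0.15) and Sdha (0.68 ± 0.18, each of the last 3 with an adjusted p between 0.0395 and 0.0402). All 6 have transcripts of at least 1000 bases. The median over the 89 members was 0.93. For 10 members the groups did not overlap with ligature plus trauma above, where 5.74% of all genes did so. In 13 libraries 2 members rose, Sdha (0.86 ± 0.18) and Ndufs1, a core iron-sulfur subunit of complex I (0.79 ± 0.14), where 1.08% of genes did, and the median was 0.068. No member was called in all 16 fits that leave out 1 library, and without trauma 1 or ligature plus trauma 3 the count was 0. It was 1 without trauma 2, trauma 3 or ligature plus trauma 2, 2 without control 2 or trauma 4, 3 without ligature 1, and 12 without ligature 2. The shares of all genes in these fits are not given here.

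Related mitochondrial genes were described by lists chosen with earlier results of these data known. Over all genes tested, 5.88% rose with the ligature, and 4.49% in 13 libraries. In ligature against control, 0 of the 13 subunits encoded in mitochondrial DNA rose and the median was 0.11, and in ligature plus trauma it was 0.35 with 0 called. In 13 libraries these medians were -0.074 and 0.080. mt-Co1, the core subunit of complex IV, measured 4205 ± 1244 CPM in control and 5407 ± 1975 in ligature (SD, n = 4, adjusted p = 0.456). Of 14 electron carriers and exchangers 8 rose with the ligature (median 0.74), and 7 in 13 libraries (median 0.54), led by Cyc1, the cytochrome of complex III (1.19 ± 0.20, adjusted p = 0.00182), the ADP/ATP carrier Slc25a5 (1.30 ± 0.24) and cytochrome c itself, Cycs (1.75 ± 0.36). Of 18 tricarboxylic acid cycle genes, the Sdh genes apart, 10 rose (median 0.75), among them Idh3a (1.39 ± 0.19) and Mdh2 (1.27 ± 0.20). In 13 libraries 10 again rose, with a median of 0.67.

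Genes that build or control the machinery were described in the same way, beside the 5.88% of all genes tested that rose with the ligature. Of 45 assembly factors 4 rose (Ndufaf2, Ndufaf4, Ndufaf5 and Ecsit, all of complex I; median 0.58), and in 13 libraries 3 (median 0.30). Of 77 mitochondrial ribosomal proteins 12 rose (median 0.77), and in 13 libraries 4 (median 0.35). Of 20 regulators of mitochondrial biogenesis 0 rose (median -0.03), and Ppargc1b had the lowest p (1.25 ± 0.41, adjusted p = 0.0632). In 13 libraries 1 of them rose. The counts of these 3 lists in 13 libraries lie near the 4.49% of all genes that rose there. Of 20 glycolysis rows 5 rose (median 0.49), and in 13 libraries 4 (median 0.48). The cytosolic ribosomal proteins, also short transcripts, had a median of 0.82 with 0 of 54 called, and 0.012 in 13 libraries.

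Markers of cells other than ligament fibroblasts moved along with the ligature. Over all genes tested, 5.88% rose with it and 4.78% fell, and 4.49% rose in 13 libraries. Of 18 subunits of the vacuolar proton pump 14 rose (median 1.42), or 12 in 13 libraries (median 1.09), and 9 of 10 osteoclast markers rose (median 2.28): their summed CPM was 1183 to 4163 in control and 1393 to 4219 in trauma. It was 11157 to 16043 in ligature and 10388 to 13368 with both, without overlap between libraries with and without a ligature. Of the remaining lists, 12 of 15 cell cycle genes rose, as did 7 of 11 neutrophil and 6 of 7 endothelial genes. Of 9 macrophage genes 3 rose and 2 fell. Of 4 brown adipocyte genes 1 rose, and the other 3 had negative log2 fold changes that did not pass (median of the list -2.14). Of the oral epithelium list 7 of 13 fell, of the osteoblast list 6 of 10, and of the periodontal ligament fibroblast list 4 of 13, with 1 that rose. In the erythroid (8 genes) and skeletal muscle (18 genes) lists 0 passed. The part of these cells in the members' values was not tested.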

How the data were processed

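Per the labels, poly(A) RNA of periodontal ligament was sequenced in 16 libraries, 4 per group. The authors deposited raw read counts, and 0 columns were left unused. Build GRCm39 and HISAT2 2.2.1, StringTie 2.1.7, Trimmomatic 0.39, FastQC 0.11.9 and DESeq2 1.32.0 appear in the submitters' processing notes. Counter, annotation release and strand setting were not given in the sources used here. Symbols and transcript lengths came from GENCODE M21 (GRCm38); rows without a symbol held 0.205% of counts. Promoter letters came from RefSeq.

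Counts were fitted with edgeR 4.0.16 (R 4.3.3): TMM scaling, filterByExpr (minimum count 10), 1 quasi-likelihood model of 4 groups with 12 residual degrees of freedom, and Benjamini-Hochberg adjustment over 20953 genes at 0.05. Intervals are 95%. The script was tested on simulated data. Depth leaves the spread between libraries, not counting, as the main error. Alternatives were DESeq2 1.42.0, its size factors, no filter, a filter of 50 counts in 4 libraries, compared groups only, a replicate block, limma-voom (limma 3.58.1), each library left out, and subsets or covariates for transcript length (spline with 5 degrees of freedom, or slope) and for muscle RNA. Fits joining the muscle and length choices were added after seeing the data.

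Members, lists and libraries left out were chosen with earlier results of these data known. Named members are the Sdh genes, tissue-restricted forms with their partners, the 3 lowest p per complex in ligature against control and per other comparison, the highest level per length, and the most opposite value. Members from small counts of calls (Ndufa8, Ndufv1, Uqcrq, Atp5d, Atp5f1, Atp5g1, Ndufs1) were named after their values were seen. Some genes that this rule selects are not reported here.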

Additional observations from a re-analysis of the deposited data

Results flagged for a closer look

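The named members gave 152 groups of 4 libraries together with the scores of all members, each complex, the mitochondrially encoded subunits and skeletal muscle. Each was examined for a library far from the other 3 (Dixon's 95% criterion), except those with a count of 0. The exceptions were every group of Cox8b and the trauma group of Cox6a2. In the groups examined 12 stood apart, and chance alone gives about 1 in 20 for each group taken by itself. The groups share libraries and the scores share members, so they are not independent and the 12 cannot be tested against that rate. Ligature 2 accounted for 9 of them, all on the high side: Atp5j at 931 CPM, Cox6c at 1025, Cox7a2 at 804, Cox8a at 725, Ndufa4 at 927 and Sdhd at 544, and the scores of all members (1.49), complex I (1.48) and complex IV (1.81). Control 3 stood above the other controls in Cox8a (225 CPM) and in the complex IV score (0.26). Ligature plus trauma 3 stood below its group in the skeletal muscle score (-1.95). Ligature 2 had both the strongest shift to short transcripts and the highest muscle score, and the part of each was not tested.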

How the results depend on the processing

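Among the members named by the rule, none called with 16 libraries in ligature or ligature plus trauma against control changed direction in any fit run. In ligature against control the 20 higher members became 46 with DESeq2, 31 with the length trend removed, 13 with 13 libraries and the muscle score, 8 with the compared groups only and 4 without the 3 muscle-rich libraries; leaving out 1 library gave 11 to 28 (11 without control 1, control 2, control 4 or ligature 2), and the median 0.55 to 1.36. The length slope as a covariate took the median to 0.26 there and to -0.12 in trauma against control (0.31 to 0.75 with 1 library left out). In ligature plus trauma against control, 55 became 14 with the slope, 11 with 13 libraries, 8 with 13 libraries and the muscle score and 8 with both library sets out (7 to 79 with 1 library left out), and the medians were 0.32, 0.61, 0.57 and 0.83 (1.11 to 1.71). Against trauma, 6 became 26 with the slope, 13 with the trend removed, 12 with DESeq2, 2 with 13 libraries, 1 with the muscle score, 1 with both sets out and 0 with 13 libraries and the muscle score (0 to 12); the median was 0.068 with 13 libraries, 0.068 with both sets out and -0.15 with 13 libraries and the muscle score (0.61 to 1.15). Against ligature the median was 0.90 without the muscle-rich libraries (-0.037 to 0.98), and for the interaction it ranged from -0.49 to 0.40. Fewer libraries enter the subsets, and otherwise the cause was not tested. The share of all genes that rose moved too. In ligature against control it was 5.88% with 16 libraries, 7.57% with the trend removed and 1.66% without the muscle-rich libraries. With both treatments it was 6.83%, 3.57% with the slope and 2.13% with 13 libraries. Against trauma it was 2.21%, and 1.08% with 13 libraries. Shares in the remaining fits are not given here, so their counts cannot be set against all genes. Level per length moved for 3 of 5 genes with the longest transcript. Replicate numbers did not pair libraries: 5 of 24 same-number pairs correlated above 0.1 (-0.157 to 0.215), and 4 of 16 libraries correlated best with their own number. The replicate block gave 25, 63 and 5 higher members in ligature and ligature plus trauma against control and against trauma, and 0 elsewhere. On CPM by plain library totals, a setting chosen after seeing the data, 40 members (8.45% of all genes) had every ligature library above every control, and 46 (8.64%) every ligature plus trauma library.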
